A study of Mus musculus with 2 samples.

Results

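The 9 genes described here encode potassium channel subunits of the cochlea: Kcnj10, Kcnj16, Kcnj13 and Kcnj8 of the inwardly rectifying family, the voltage-gated subunit Kcnq1 with its accessory subunit Kcne1, the calcium-activated channel Kcnma1, and the 2-pore-domain channels Kcnk1 and Kcnk2. They were chosen by symbol, and all 9 were found among the 32285 genes of both matrices. The RNA of single cells came from dissected cochlear sensory epithelium of C57BL/6J mice, 4 to 6 weeks old, captured in droplets with 10x Genomics 3′ v3.1 chemistry. Every ear had been exposed for 2 hours to noise of 105 dB in the band from 8 to 16 kHz, and tissue was taken on day 2 after it. The Drug-NIHL library held 5 pooled ears given a drug of 90 mg/ml ahead of the noise. The NIHL library held 5 pooled ears from the other side of the same animals, with noise and no drug. VPA is the drug's abbreviation in the title, and neither its full name nor its route is stated in the labels. No ear without noise was analysed here.

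Potassium is the main cation of endolymph, the fluid above the hair bundles, and it carries the current through hair cells. In the stria vascularis, Kcnj10 of intermediate cells is known to set the potential of the intrastrial space, and marginal cells secrete potassium into endolymph through channels made of Kcnq1 and Kcne1. Supporting cells, root cells, fibrocytes and glia take up or pass on potassium, in part through Kcnj10 and Kcnj16, which can form mixed channels. Kcnj8 forms the pore of the ATP-sensitive channel of pericytes, and Kcnma1 carries the large calcium-activated potassium current of hair cells and smooth muscle.

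In 17536 Drug-NIHL and 16618 NIHL cells, with median totals of 1128.5 and 1128 unique molecular identifiers (UMIs, counted molecules), 21 marker-named classes and 6 unnamed clusters had at least 30 cells in each library and were compared. Each class is written with "-like", and its markers held none of the 9 genes. With 1 library per group there was no test of the drug. Levels are in CPM, the UMIs of a gene scaled by the total of the UMIs summed over a class, ratios are Drug-NIHL over NIHL, and all 95% intervals cover counting error only. Past the fold means a ratio of 1.5 or more, or of 0.67 or less. A ratio was given where the 2 sums together held at least 20 UMIs. Because the genes differ in transcript structure and 3′ capture, levels were compared within a gene and not between genes.

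Several labels went beyond the named tissue or were met in part. The hair cell-like class of 154 Drug-NIHL and 106 NIHL cells had Otof at 1038 and 832 CPM, but Slc26a5, the motor protein of outer hair cells, had 0 UMIs in both libraries. Its cluster also held 55 Drug-NIHL and 2 NIHL cells led by Tmem212 and with 0 Otof UMIs, which were kept apart after the values were seen. The supporting cell-like class was led by Tectb, Otog and Otol1, a gene known from otoconial membranes. The class named for root, spindle or outer sulcus cells by Slc26a4, P2rx2 and Epyc had Ceacam16, a supporting cell marker, among its first leading genes at 2495 and 2803 CPM. No cluster was named for strial basal cells. A choroid plexus-like class existed among NIHL cells alone: 122 NIHL cells had Ttr at 165138 CPM, and the 94 Drug-NIHL cells of that cluster had 4 Ttr UMIs, so this cluster was not compared. The doublet caller removed 12.9% of Drug-NIHL and 4.62% of NIHL cells, and 111 barcodes occurred in both libraries, 87 of them among the cells kept. For background from free RNA, shares of cells with a UMI were set beside those of erythroid-like cells, whose median totals were 2457.5 and 3224 UMIs, and all such shares come after thinning each cell to 1000 UMIs.

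By the mean over the 2 libraries, the highest class was intermediate cells for Kcnj10 and Kcnj13, marginal cells for Kcnq1 and Kcne1, the Ceacam16 and Slc26a4 epithelium for Kcnj16, pericytes for Kcnj8, hair cells for Kcnma1, neurons for Kcnk1 and fibrocytes for Kcnk2. For 7 genes that class lay above all 26 other classes and clusters beyond the counting intervals in both libraries, and for Kcnk2 it lay above 25 and for Kcnma1 above 23.

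**Figure D1:**
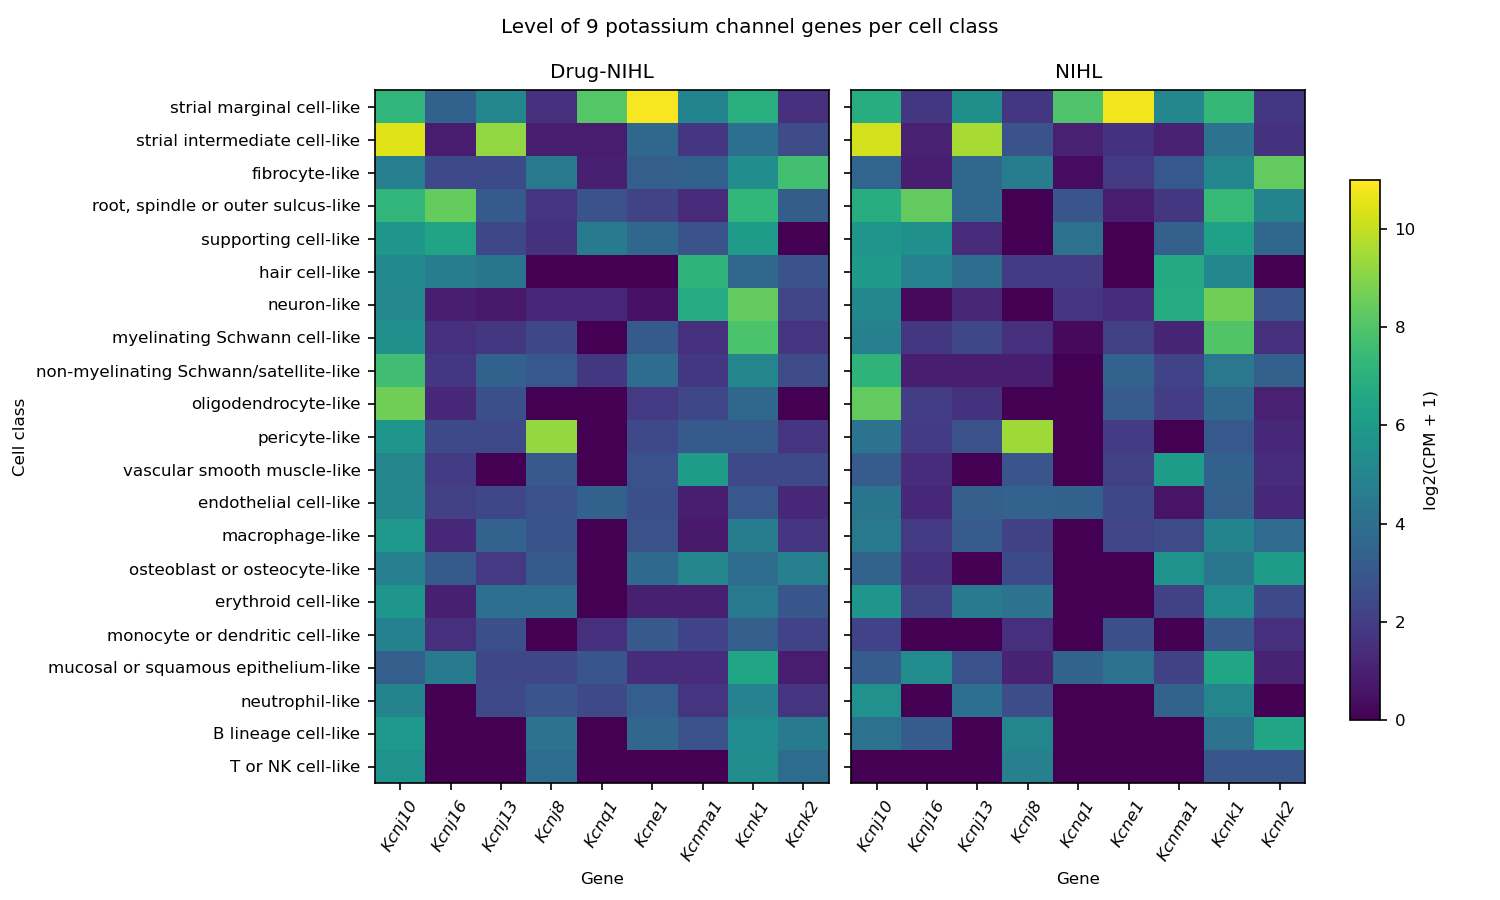
Level of each of the 9 genes, as log2(CPM + 1) by colour, in the 21 compared classes (rows), with the Drug-NIHL library in the left panel and the NIHL library in the right panel. The same bright cells appear in both panels: Kcne1 in marginal-like cells at 1914 and 1721 CPM and Kcnj10 in intermediate-like cells at 1409 and 1226 CPM.

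Kcnj10 lies on chromosome 1 (172341210 to 172374085, plus strand, GRCm38, GENCODE M21) and Kcnj13 on the same chromosome (87386363 to 87394729, minus strand). Both were highest in the melanocyte-derived intermediate-like cells, so their promoters are shown together. The windows run from 250 bases before to 50 bases after the start site, from RefSeq on GRCm38.p6, read 5′ to 3′ on each gene's strand. Kcnj13 spans chr1:87394680-87394979 and Kcnj10 spans chr1:172340960-172341259. Capitals mark matches, on either strand, to 3 motifs that do not overlap here: the E-box CACGTG, the E-box variant CATGTG known from binding sites of the melanocyte factor Mitf, and TATAAA.
Kcnj13 promoter: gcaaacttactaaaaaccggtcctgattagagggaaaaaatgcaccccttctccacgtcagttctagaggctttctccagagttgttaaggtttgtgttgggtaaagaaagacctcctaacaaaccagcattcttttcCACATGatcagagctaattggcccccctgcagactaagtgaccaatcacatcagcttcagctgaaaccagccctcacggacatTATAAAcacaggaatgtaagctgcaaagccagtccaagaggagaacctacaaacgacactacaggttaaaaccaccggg
Kcnj10 promoter: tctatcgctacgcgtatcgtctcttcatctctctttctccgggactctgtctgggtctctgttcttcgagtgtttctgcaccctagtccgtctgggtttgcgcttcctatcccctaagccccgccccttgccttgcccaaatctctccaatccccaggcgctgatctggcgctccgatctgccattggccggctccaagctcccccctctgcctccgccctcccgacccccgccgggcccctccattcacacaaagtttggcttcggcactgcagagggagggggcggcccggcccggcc
The Kcnj13 window held CATGTG, read on this strand as CACATG, at position -112 from the start site and TATAAA at position -29, while the Kcnj10 window held none of the 3. Among 32851 RefSeq promoter windows of equal length, 14.15% held CATGTG, 13.62% TATAAA and 7.15% CACGTG.

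In intermediate-like cells Kcnj10 had 1409 CPM in the Drug-NIHL library and 1226 CPM in the NIHL library, a ratio of 1.15 (1.07 to 1.24). UMIs of Kcnj10 were found in 69.5% of Drug-NIHL and 68.4% of NIHL intermediate-like cells, against 4.88% and 4.22% of erythroid-like cells. The next of the compared classes, oligodendrocyte-like cells, had 392 and 325 CPM, and the counting intervals of the 2 classes did not overlap in either library. The unnamed cluster 13, at 363 and 334 CPM, was not apart from oligodendrocyte-like cells. Astrocyte-like cells, too few to compare, had a higher Kcnj10 value than oligodendrocyte-like cells in both libraries, as given below. Only 26 of them were in NIHL, and the counting intervals of these 2 classes were not compared. Kcnj13, an inward rectifier of low conductance, went the other way in the same cells, with 602 CPM in Drug-NIHL and 760 CPM in NIHL, a ratio of 0.792 (0.715 to 0.877). Its share was 36.9% of Drug-NIHL and 45.7% of NIHL intermediate-like cells, against 1.03% and 1.27% of erythroid-like cells. Over 15 alternative processings the Kcnj10 ratio here stayed between 1.07 and 1.18 and the Kcnj13 ratio between 0.718 and 0.837. Neither passed the fold. Of the 9 genes, 3 had a ratio in this class and 0 were past the fold, where 7.44% of all genes were higher and 8.02% lower by that measure.

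The cells holding the 2 transcripts overlapped. Of intermediate-like cells with a Kcnj13 UMI, 303 of 357 in Drug-NIHL and 207 of 246 in NIHL also had Kcnj10, which is 84.9% and 84.1%. Of those without Kcnj13, 70.5% and 62.1% had Kcnj10, and these were shallower, with medians of 1206.5 and 1219 UMIs against 1628 and 2171.5. Kcnj16, the partner of Kcnj10 in mixed channels, was found in 1 intermediate-like cell of each library, beside Kcnj10 in both cases. Kcnj13 is overlapped on the opposite strand by Gigyf2, and no source used here says whether counting used strand. Gigyf2 itself had 39.5 and 44.5 CPM in these cells. Outside the stria, Kcnj13 had 225 of its 1213 NIHL UMIs in the choroid plexus-like cells.

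Kcnq1 (chromosome 7, 143106362 to 143427042, plus strand) and Kcne1 (chromosome 16, 92345982 to 92359468, minus strand) form the secretory channel of marginal cells. Marginal-like cells had Kcne1 at 1914 CPM in Drug-NIHL and 1721 CPM in NIHL, a ratio of 1.11 (1.01 to 1.23). They held 85.0% of all Kcne1 UMIs of the Drug-NIHL cells and 87.7% of those of the NIHL cells. For Kcnq1 the levels were 272 CPM in Drug-NIHL and 252 CPM in NIHL, a ratio of 1.08 (0.832 to 1.40), so a difference was not detectable at this depth. Of the 6 genes with a ratio in marginal-like cells, 0 were past the fold, where 9.16% of all genes were higher and 10.8% lower. The remaining 4 were Kcnj10 (149 and 115 CPM), Kcnk1 (121 and 161 CPM), Kcnj13 (32.5 and 43.2 CPM) and Kcnma1 (30.6 and 33.6 CPM), each given for Drug-NIHL and then NIHL, and each interval of the ratio included 1. Marginal-like cells also carried the intermediate cell gene Dct at 1840 and 1440 CPM, and its part in their Kcnj10 and Kcnj13 was not tested.

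The pore subunit and its partner were seen in the same cells. All 89 Drug-NIHL marginal-like cells with a Kcnq1 UMI also had Kcne1, and in NIHL 59 of 61 did. Among cells without Kcnq1, 78.7% in Drug-NIHL and 78.8% in NIHL had Kcne1, at medians of 1022.5 and 1303 UMIs against 3087 and 3595 in the cells with Kcnq1. The antisense transcript Kcnq1ot1 overlaps Kcnq1 and was at 34.5 and 43.2 CPM in marginal-like cells. Kcnq1 was next highest in the unnamed cluster 17, led by Vmo1 and Crhbp, at 22.3 CPM in Drug-NIHL and 24.6 CPM in NIHL, and the gap to marginal-like cells exceeded the counting intervals.

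**Figure D2:**
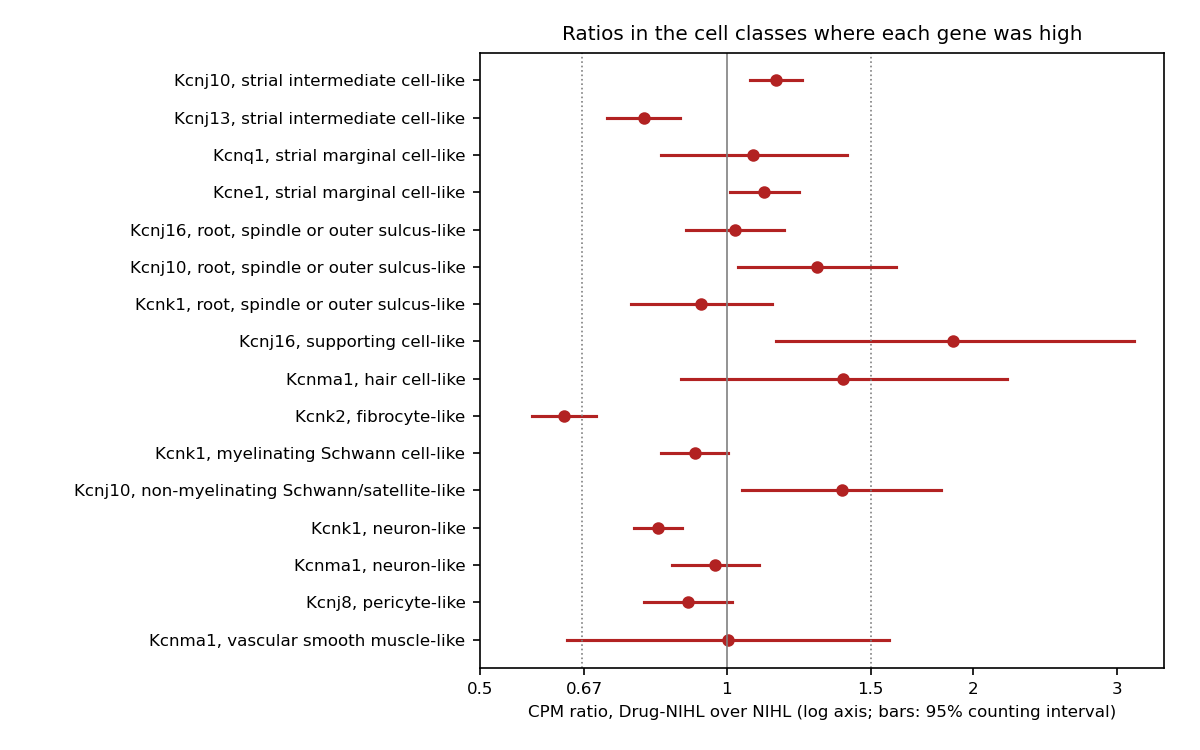
Drug-NIHL over NIHL ratio of CPM (log axis) for 16 gene and class pairs in which the gene was high, with 95% counting intervals as bars, a line at 1 and dotted lines at 0.67 and 1.5. Kcnj16 in supporting-like cells at 1.89 and Kcnk2 in fibrocyte-like cells at 0.634 are the pairs past the dotted lines.

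Kcnj16 (chromosome 11, 110968033 to 111027968, plus strand) marked the Ceacam16 and Slc26a4 epithelium of 722 Drug-NIHL and 529 NIHL cells. Its level there was 336 CPM in Drug-NIHL and 328 CPM in NIHL, a ratio of 1.02 (0.893 to 1.17), and its share was 27.5% and 25.0% of cells, against 0.257% and 0.422% of erythroid-like cells. These cells held 73.2% of all Kcnj16 UMIs in Drug-NIHL and 75.5% in NIHL. Kcnj10 was at 149 CPM in Drug-NIHL and 116 CPM in NIHL in the same epithelium, a ratio of 1.29 (1.03 to 1.61), and Kcnk1 at 154 and 166 CPM, a ratio of 0.932 (0.763 to 1.14). Kcnj10 and Kcnj16 were found together in 76 Drug-NIHL and 64 NIHL cells. Kcnj16 was present in 48.7% of Drug-NIHL and 56.1% of NIHL cells with Kcnj10, and in 34.8% and 38.3% of those without it, which had fewer UMIs.

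Of the 5 genes with a ratio in this epithelium, 0 were higher and 2 were lower past the fold, where 6.25% of all genes were higher and 7.93% lower. The 2 were Kcnj13, with 10 Drug-NIHL and 15 NIHL UMIs, and Kcnk2, with 11 and 36 UMIs and a ratio of 0.287 (0.132 to 0.577). Kcnk2 was seen in 0.208% of the Drug-NIHL and 1.26% of the NIHL cells of this class, against 0.514% and 0.422% of erythroid-like cells, so it was below them in Drug-NIHL and above them in NIHL.

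Supporting-like cells, 210 in Drug-NIHL and 169 in NIHL, were second for Kcnj16. Its level was 84.5 CPM in Drug-NIHL and 44.7 CPM in NIHL, from 42 and 29 UMIs, a ratio of 1.89 (1.15 to 3.14) that stayed between 1.72 and 2.40 in the alternatives. In thinned cells the shares lay close together, at 5.30% of Drug-NIHL and 4.00% of NIHL cells. It was the 1 of 4 genes with a ratio that passed the fold, where 9.49% of all genes were higher and 10.8% lower. Kcnj10 in these cells was at 56.3 and 52.4 CPM, close to the 54.3 and 53.4 CPM of erythroid-like cells, and in 5.30% of Drug-NIHL and 10.0% of NIHL cells, and its ratio of 1.07 (0.627 to 1.82) was 0.497 after thinning. Kcnk1 had 66.4 CPM in Drug-NIHL and 78.7 CPM in NIHL, a ratio of 0.844 (0.528 to 1.33) that turned to 1.61 after thinning, with shares of 8.61% and 4.67%. Kcnq1 had 22.1 and 17.0 CPM from 11 UMIs in each library.

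In hair cell-like cells Kcnma1 (chromosome 14, 23289431 to 24014491, minus strand) was at the highest mean level of any class. Its level was 143 CPM in Drug-NIHL and 103 CPM in NIHL, from 47 and 36 UMIs, a ratio of 1.39 (0.879 to 2.20). It was found in 14.4% of Drug-NIHL and 9.80% of NIHL hair cell-like cells, against 0.257% and 0.422% of erythroid-like cells. Neuron-like cells followed with 108 CPM in Drug-NIHL and 111 CPM in NIHL, a ratio of 0.969 (0.857 to 1.09), and their intervals overlapped those of hair cell-like cells, so the order of the 2 classes was not resolved by the counts. Vascular smooth muscle-like cells had 64.2 and 64.0 CPM, with an interval of the ratio of 0.639 to 1.58. Osteoblast or osteocyte-like cells had 31.4 CPM in Drug-NIHL and 47.8 CPM in NIHL, a ratio of 0.657 (0.399 to 1.05), in a class where 14.9% of all genes were lower past the fold and 7.6% higher.

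The depth of the hair cell-like class limits the other genes. Kcnj8, Kcnq1 and Kcne1 had 0 UMIs in its Drug-NIHL cells, which allows up to 9.13 CPM, and 1, 1 and 0 UMIs in its NIHL cells. Kcnj10 had 12 Drug-NIHL and 21 NIHL UMIs there, 36.5 and 60.2 CPM, in 4.79% and 1.96% of cells, shares below those of erythroid-like cells. Its ratio of 0.606 (0.272 to 1.29) became 2.03 when the 57 cells without Otof were left in the class, since these held 45 Drug-NIHL Kcnj10 UMIs. Of the 2 genes with a ratio, that 1 was past the fold, lower, where 14.2% of all genes were lower and 9.69% higher. Kcnma1 overlaps several antisense models.

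Kcnk2 (chromosome 1, 189207930 to 189402273, minus strand), the mechano-gated channel TREK-1, was highest in fibrocyte-like cells, with 205 CPM in Drug-NIHL and 324 CPM in NIHL, a ratio of 0.634 (0.579 to 0.694). The class joins 3 clusters, and Kcnk2 was unevenly spread among them. Cluster 3, led by Fst, Inmt and Coch, had 416 CPM in Drug-NIHL and 477 CPM in NIHL, a ratio of 0.871 (0.791 to 0.958). Cluster 9, led by Emilin2 and Notum, had 70.9 and 56.5 CPM, and the interval of its ratio, 0.874 to 1.81, included 1. Cluster 14, led by Slc4a11, had 30.8 and 87.0 CPM, a ratio of 0.354 (0.207 to 0.617), from 41 and 23 UMIs. This cluster held 711 of 2630 Drug-NIHL and 139 of 1710 NIHL fibrocyte-like cells. With each cluster weighted as in the NIHL library the class ratio was 0.880, without cluster 14 it was 0.839, and with predicted doublets kept it was 0.988. The class ratio was past the fold in 6 of 15 alternatives.

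**Figure D3:**
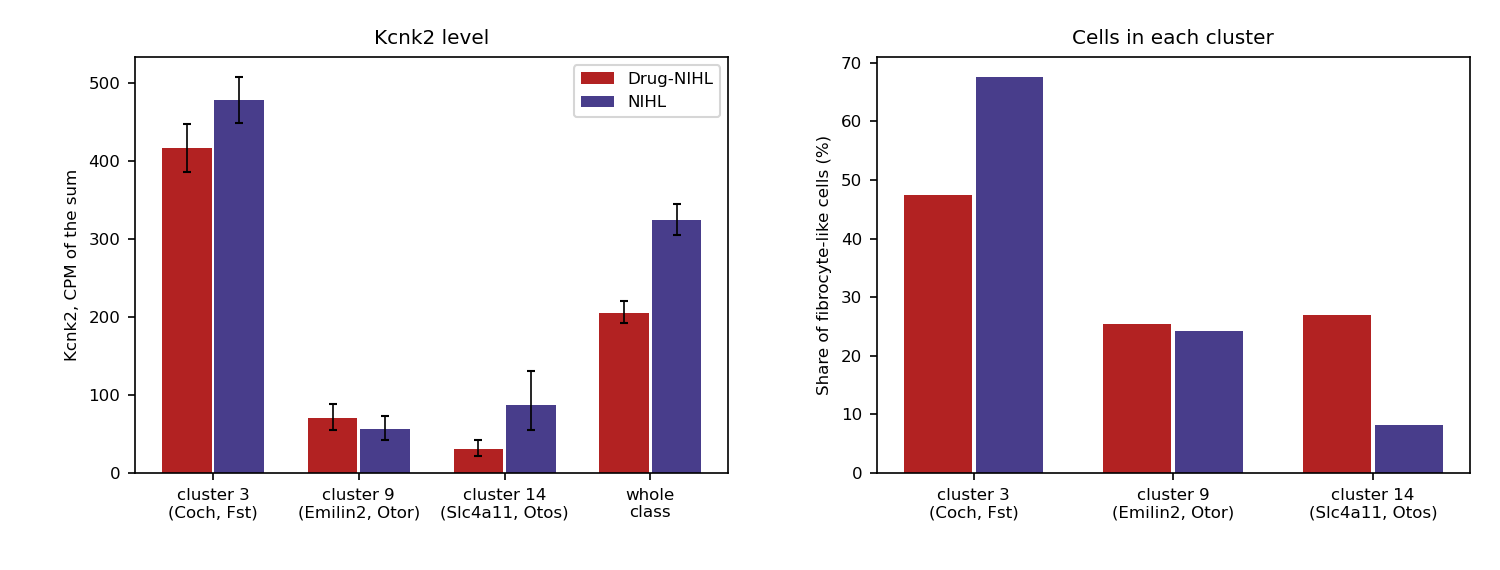
Kcnk2 level (CPM, left panel, bars with 95% counting intervals) in the 3 clusters of fibrocyte-like cells and the whole class, and the share of fibrocyte-like cells in each cluster (%, right panel), with Drug-NIHL left of NIHL. Kcnk2 is highest in cluster 3, at 416 and 477 CPM, and the NIHL library has the larger share of its cells there.

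Among the other genes in fibrocyte-like cells, Kcnj8 had 20.8 CPM in Drug-NIHL and 24.7 CPM in NIHL and Kcnk1 had 41.6 and 32.0 CPM. The Kcnk1 ratio, with an interval of 1.02 to 1.67, was 0.823 without cluster 14, and in cluster 3 Kcnk1 was at 35.6 CPM in Drug-NIHL and 39.6 CPM in NIHL. Of the 8 genes with a ratio in this class, 3 were higher (Kcnj10, Kcnj16 and Kcne1) and 2 lower (Kcnj13 and Kcnk2), where 6.31% of all genes were higher and 7.45% lower. All of these but Kcnk2 were low. Kcnj10 had 24.9 CPM in Drug-NIHL and 10.9 CPM in NIHL, a ratio of 2.29 (1.56 to 3.43), at less than the erythroid-like share in both libraries. Kcnj16 had 18 and 3 UMIs, and Kcne1 had 38 and 9 UMIs, a ratio of 3.48 (1.65 to 8.18). Kcnj13 had 4.60 and 12.1 CPM, a ratio of 0.382 (0.209 to 0.672), beside erythroid-like levels of 15.2 and 22.7 CPM. After thinning the Kcnj10 ratio was 1.44, and with predicted doublets kept the Kcnj13 ratio was 0.894.

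Outside the fibrocytes Kcnk2 was next highest in the unnamed clusters 18 and 35, at 146 and 149 CPM in Drug-NIHL and 132 and 115 CPM in NIHL. Osteoblast or osteocyte-like cells had 26.4 CPM in Drug-NIHL and 64.9 CPM in NIHL, from 21 and 99 UMIs, a ratio of 0.407 (0.241 to 0.656). This pair was past the fold in all 14 alternatives that gave a value, in a class where 2 of the 4 genes with a ratio were lower and 1, Kcnj10, was higher, against 14.9% and 7.6% of all genes. The class was led by Mmp3 and Mmp13 in Drug-NIHL and by Bglap and Ibsp in NIHL. The part of that difference in its Kcnk2 and Kcnma1 ratios was not tested. Kcnk2 was lower in each of the 5 named classes with a ratio, all past the fold. The share of all genes lower in as many classes was not computed. The macrophage-like ratio came from 3 and 20 UMIs and the neuron-like ratio from 17 and 36 UMIs. Both had shares at or below the erythroid-like share in both libraries. The fibrocyte-like ratio moved toward 1 with clusters weighted as in NIHL, as given above. With predicted doublets kept, the ratio turned to 1.20 in macrophage-like cells and 1.62 in neuron-like cells. The unnamed clusters differed. Kcnk2 in cluster 21 was higher past the fold, at 22.6 CPM in Drug-NIHL and 10.7 CPM in NIHL. In that cluster 9.03% of all genes were higher and 8.5% lower. Kcnk2 was at 39.2 and 35.4 CPM in cluster 13 and at 74.1 and 76.1 CPM in cluster 15.

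In glia, Kcnk1 (chromosome 8) and Kcnj10 had separate classes. Myelinating Schwann-like cells, 3556 in Drug-NIHL and 5611 in NIHL, had Kcnk1 at 234 and 255 CPM, a ratio of 0.914 (0.831 to 1.01). They had it in 21.9% of Drug-NIHL and 22.0% of NIHL cells, against 3.60% and 6.33% of erythroid-like cells. Non-myelinating Schwann or satellite glia-like cells had it at 31.4 and 19.4 CPM, from 13 and 21 UMIs. For Kcnj10 the order of these glia was turned round: the non-myelinating class had 196 CPM in Drug-NIHL and 141 CPM in NIHL, a ratio of 1.39 (1.04 to 1.83), and the myelinating class 45.6 and 27.0 CPM, a ratio of 1.69 (1.31 to 2.16) at shares below those of erythroid-like cells, and 1.32 after thinning. The unnamed cluster 13, led by Ceacam10 and Them5 and with 6 Schwann markers detected, carried both, with Kcnj10 at 363 and 334 CPM and Kcnk1 at 217 and 229 CPM in Drug-NIHL and NIHL.

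Of the 5 genes with a ratio in myelinating Schwann-like cells, 3 were higher (Kcnj10, Kcnj8 and Kcne1) and 1 lower (Kcnj13), where 5.76% of all genes were higher and 4.77% lower. The last 3 of these had between 7 and 22 UMIs in a library. In non-myelinating cells 1 of 2 was higher, Kcnk1, at 13 and 21 UMIs, where 8.18% of all genes were higher and 15.2% lower. Astrocyte-like cells, 200 in Drug-NIHL and 26 in NIHL, were too few to compare and had Kcnj10 at 825 and 351 CPM. Oligodendrocyte-like cells had Kcnj10 at 392 CPM in Drug-NIHL and 325 CPM in NIHL, a ratio of 1.21 (1.03 to 1.42) that turned to 0.905 after thinning, and of their 2 genes with a ratio 0 passed the fold, where 7.24% of all genes were higher and 12.9% lower.

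Kcnk1 was highest in neuron-like cells, with 322 CPM in Drug-NIHL and 391 CPM in NIHL, a ratio of 0.825 (0.771 to 0.883), between 0.820 and 0.874 in the alternatives. These cells were led by Tac1 and Pcp4 in Drug-NIHL and by Fabp3 and Calb2 in NIHL, so the 2 sets of neurons differed in other genes too, and the part of that in the Kcnk1 ratio was not tested. Of their 4 genes with a ratio, 1 was lower past the fold, Kcnk2 at 3.91 and 6.55 CPM, where 4.48% of all genes were lower and 6.68% higher.

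Kcnj8 (chromosome 6, 142564837 to 142571614, minus strand) was concentrated in pericytes. Pericyte-like cells, 1054 in Drug-NIHL and 661 in NIHL, had 617 CPM and 688 CPM, a ratio of 0.897 (0.793 to 1.02). They held 72.8% of all Kcnj8 UMIs in Drug-NIHL and 72.0% in NIHL. Its regulatory subunit Abcc9 (SUR2) had 570 CPM in Drug-NIHL and 615 CPM in NIHL in the same cells, a ratio of 0.927 (0.814 to 1.06). Both were found in 158 Drug-NIHL and 159 NIHL cells. Abcc9 was present in 42.1% of Drug-NIHL and 56.0% of NIHL pericyte-like cells with Kcnj8, and in 28.4% and 31.0% of those without, at nearly equal medians of 771 and 771 UMIs in Drug-NIHL and 930.5 and 922 in NIHL. Kcnj8 in endothelial-like cells was at 5.92 and 10.0 CPM, below erythroid-like cells.

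Of the 2 genes with a ratio in pericyte-like cells, 1 was higher, Kcnj10, where 7.99% of all genes were higher and 9.21% lower. Its level was 53.3 CPM in Drug-NIHL and 17.1 CPM in NIHL, from 48 and 12 UMIs, a ratio of 3.11 (1.63 to 6.43), in 3.54% and 1.11% of cells, less than in erythroid-like cells, and the ratio was 1.82 with predicted doublets kept. Endothelial-like cells had 1 of 6 genes higher (Kcnj10) and 2 lower (Kcnj13 and Kcnj8), against 5.12% and 5.51% of all genes, and with predicted doublets kept the Kcnj13 ratio there was 2.39. In vascular smooth muscle-like cells Kcnj10 was the 1 of 2 genes past the fold, against 8.61% of all genes higher and 9.25% lower, with 21 Drug-NIHL and 5 NIHL UMIs, a ratio of 3.83 (1.41 to 13.0) that was 2.06 with predicted doublets kept.

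Kcnj10 was higher in Drug-NIHL in 15 of the 17 classes with a ratio, and in 11 of them the counting interval lay above 1. The exceptions were hair cell-like and neutrophil-like cells. After thinning, the ratio was below 1 in neuron-like (0.524), supporting-like (0.497), erythroid-like (0.914) and oligodendrocyte-like cells (0.905) as well. The share of all genes higher in as many classes was not computed. The 7 classes past the fold upward had low Kcnj10, between 24.9 and 57.1 CPM in Drug-NIHL and between 8.00 and 27.0 CPM in NIHL. Supporting-like, erythroid-like, hair cell-like, neutrophil-like and neuron-like cells (35.0 and 34.4 CPM in the last) lay in the same Drug-NIHL range and were not past the fold upward. The part of a low level in these ratios was not tested. In macrophage-like cells, 1 of the 7, the levels were 57.1 and 20.6 CPM, a ratio of 2.78 (1.81 to 4.35). Macrophage-like cells had 1 of 4 genes higher and 1 lower, Kcnk2, against 7.85% and 7.82% of all genes. In erythroid-like cells the level was 54.3 CPM in Drug-NIHL and 53.4 CPM in NIHL, a ratio of 1.02 (0.679 to 1.53). Of the 4 genes with a ratio in erythroid-like cells 1 was lower, Kcnk1, from 22 Drug-NIHL and 35 NIHL UMIs, where 7.97% of all genes were higher and 20% lower, and in neutrophil-like cells Kcnj10 was the 1 gene with a ratio, lower, where the shares were 19.5% and 24.4%. Over all cells Kcnj10 had 127 and 82.9 CPM, a ratio of 1.53, and Kcne1 38.3 and 24.2 CPM, a ratio of 1.58; these were the 2 of 9 genes past the fold, where 5.89% of all genes were higher and 3.7% lower. Intermediate-like cells were 4.26% of Drug-NIHL and 2.80% of NIHL cells, and marginal-like cells 1.36% and 0.963%. The intermediate cell gene Dct was set beside Kcnj10 in the same classes. It was higher in Drug-NIHL in 6 of the 7 classes in which Kcnj10 was past the fold upward, as in pericyte-like cells at 263 and 140 CPM and fibrocyte-like cells at 183 and 108 CPM. In the other class, endothelial-like cells, Dct was lower in Drug-NIHL, at 158 CPM against 197 CPM in NIHL. Of the other classes with a Kcnj10 ratio, all but neutrophil-like cells (87.4 and 688 CPM) also had more Dct in Drug-NIHL. In hair cell-like cells, where Kcnj10 was lower, Dct was at 387 CPM in Drug-NIHL and 97.5 CPM in NIHL. In neuron-like cells, where Kcnj10 was level, Dct was at 31.8 and 7.82 CPM. In erythroid-like cells, where Kcnj10 was also level, Dct was at 783 CPM in Drug-NIHL and 583 CPM in NIHL. The part of the cell shares in the all-cell ratios, and of Dct-bearing RNA in the low classes, was not tested.

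**Figure D4:**
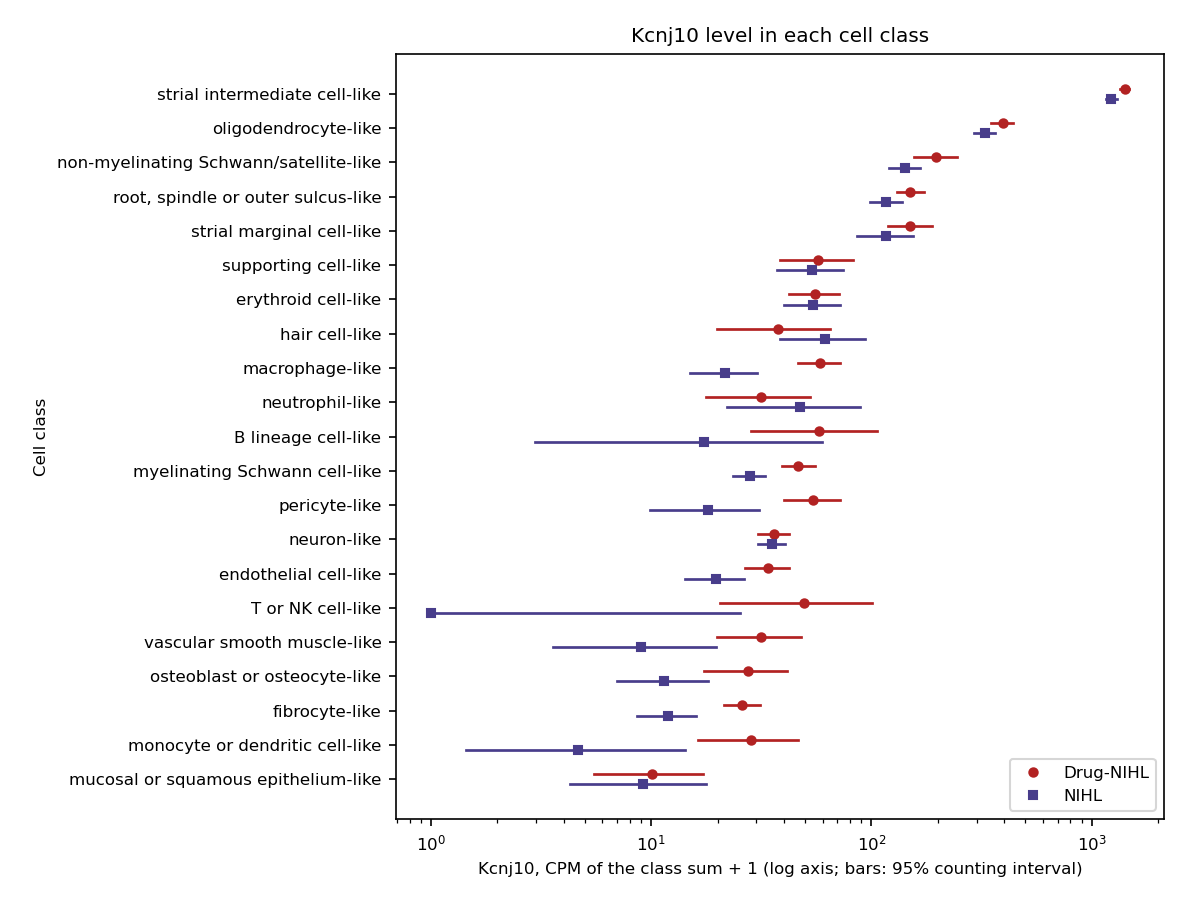
Kcnj10 level (CPM + 1, log axis) in each of the 21 classes, with 95% counting intervals as bars, Drug-NIHL as circles and NIHL as squares below them. The classes with the highest levels lie close together in both libraries, at 1409 and 1226 CPM in intermediate-like cells, and most low classes have the Drug-NIHL point to the right.

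Over all 21 classes, 66 gene and class pairs had a ratio, 13 of them higher and 15 lower past the fold. In the classes with such pairs, between 5.12% and 19.5% of all genes were higher and between 4.48% and 24.4% lower. The interval excluded 1 for 11 of the higher and 7 of the lower pairs, and the share of all genes meeting this was not computed. In 17 of the 28, the share of cells with a UMI was at or below that of erythroid-like cells in both libraries. These include Kcnk1 in erythroid-like cells, which meets this by definition because it is the reference class. In 7 the share was above it in both libraries. Higher were Kcnj16 in supporting-like cells and Kcne1 in myelinating Schwann-like and fibrocyte-like cells. Lower were Kcnj16 in mucosal epithelium-like cells, Kcnma1 and Kcnk2 in osteoblast or osteocyte-like cells and Kcnk2 in fibrocyte-like cells. For Kcne1 this bar was low, because erythroid-like cells ranked 24 of 27 by mean level, at 0.952 and 0 CPM. Kcne1 was at 7.77 and 3.23 CPM in the Schwann-like and 9.20 and 2.65 CPM in the fibrocyte-like cells. Levels in macrophage-like (5.64 and 3.98 CPM) and endothelial-like cells (5.46 and 4.29 CPM) were in a like range. For Kcnj10, Kcnj13 and Kcnj8 the erythroid-like share may hold more than free RNA, which was not tested. Among Drug-NIHL erythroid-like cells, 7 of 9 with Kcnj13 also had Kcnj10, against 6.20% of those without Kcnj13. In NIHL it was 4 of 8, against 5.81%. Of the Drug-NIHL cells with Kcnj8, 7 of 12 had Abcc9, against 4.00% of those without Kcnj8. In mucosal epithelium-like cells Kcnj16 was 1 of 2 genes with a ratio, at 22.2 CPM in Drug-NIHL and 38.4 CPM in NIHL, where 15.2% of all genes were higher and 14% lower. In none of these 28 pairs was the class the one with the gene's highest level, except Kcnk2 in fibrocyte-like cells.

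A list of 48 other genes of potassium handling, 23 channels, 10 auxiliary subunits and 15 pumps, cotransporters, chloride channels and gap junction genes, was followed in the same classes. In marginal-like cells 14 had a ratio, and the median log2 ratio was 0.01, beside -0.04 over all genes. The cotransporter Slc12a2, which loads marginal cells with potassium, was at 4663 CPM in Drug-NIHL and 4700 CPM in NIHL, a ratio of 0.992 (0.935 to 1.05). Past the fold, 1 gene of the list was higher and 1 lower, where 9.16% of all genes were higher and 10.8% lower. In intermediate-like cells 0 of 14 were higher and 1 was lower, the voltage-gated channel Kcna1 at 46.7 and 130 CPM, where 7.44% of all genes were higher and 8.02% lower. Kcna1 was abundant in myelinating Schwann-like cells, at 1141 CPM in Drug-NIHL and 1202 CPM in NIHL, a ratio of 0.949 (0.909 to 0.991), and was found in 13.6% of Drug-NIHL and 22.4% of NIHL erythroid-like cells.

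In fibrocyte-like cells 20 of the 48 had a ratio, with 6 higher and 3 lower, where 6.31% of all genes were higher and 7.45% lower. Slc12a2 was at 281 CPM in Drug-NIHL and 137 CPM in NIHL, a ratio of 2.05 (1.84 to 2.29). Kcna1 at 30.3 and 60.3 CPM and the acid-sensitive channel Kcnk3 at 21.1 and 32.3 CPM were lower. These ratios stand beside the larger Drug-NIHL share of cluster 14 given above. In supporting-like cells 2 of 12 were higher and 3 lower, where 9.49% of all genes were higher and 10.8% lower, with the gap junction gene Gjb2 at 70.4 CPM in Drug-NIHL and 207 CPM in NIHL, a ratio of 0.341 (0.228 to 0.497), and Kcna1 at 2 and 36 UMIs. In the Ceacam16 and Slc26a4 epithelium 1 of 16 was higher and 3 lower, where the shares of all genes were 6.25% and 7.93%, among them Kcnq3 at 7 and 21 UMIs.

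In hair cell-like cells 0 of 13 were higher and 3 lower, Kcna1 and Gjb2 among them, where 9.69% of all genes were higher and 14.2% lower. Kcna10, a channel among the leading genes of its Drug-NIHL cells, was at 661 CPM in Drug-NIHL and 551 CPM in NIHL, a ratio of 1.20 (0.983 to 1.46). In myelinating Schwann-like cells 5 of 19 were higher and 0 lower, where 5.76% of all genes were higher and 4.77% lower, led by the gap junction genes Gja1, at 22 and 6 UMIs, and Gjb6, at 28.6 and 10.9 CPM. Pericyte-like cells had 2 of 18 higher, Gjb6 and Kcnk3, with Kcnk3 at 43.3 CPM in Drug-NIHL and 17.1 CPM in NIHL, and 1 lower, Gjb2, where 7.99% of all genes were higher and 9.21% lower. Neuron-like cells had 10 of 33 higher and 4 lower, where 6.68% of all genes were higher and 4.48% lower. In them Kcnq5 was at 18.6 CPM in Drug-NIHL and 1.82 CPM in NIHL, a ratio of 10.2 (5.30 to 22.2), while Kcnq3 was at 44.9 and 73.5 CPM, a ratio of 0.611 (0.512 to 0.726). The neuron-like cells had different leading genes in the 2 libraries, as given above. The part of that in these ratios was not tested.

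Likeness of pattern was taken as the Pearson correlation of log2(CPM + 1) over the 42 class and library sums of the 21 classes, among 14444 genes. The sums share library, depth and cell makeup, so these values are descriptions. Kcnj13 was most like Slc45a2 (0.883), Dct (0.864) and Gsta4 (0.856). Kcne1 was most like Etnppl (0.845) and Dnase1 (0.834), and Kcnq1 like Otx1 (0.838), Slco1a5 (0.835) and Myo5c (0.835). For Kcnj8 the nearest were Vtn (0.806), Fhl2 (0.776) and Rgs5 (0.758), and for Kcnj16 Cnksr1 (0.873), Fut2 (0.868) and Tmem79 (0.860). Kcnj10 was nearest to 5031439G07Rik (0.868), Gpr37 (0.792) and Atp2c1 (0.779), and Kcnk2 to Fxyd2 (0.755) and Car3 (0.651). Kcnma1 was nearest to Ak1 (0.777) and Calm2 (0.760), and Kcnk1, which had several high classes, to Lrrc75b (0.736) and Ptprf (0.701).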

How the data were processed

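Single-cell RNA was measured in 2 libraries, 1 per group, with 39939170 UMIs in Drug-NIHL and 38380393 in NIHL. The deposited matrices hold UMI counts per gene and barcode from Cell Ranger 5.0.1, per the file headers; per the submitters' processing notes, STAR, Seurat 3.2.2 and mm10 were also used. Barcodes were kept with at least 300 genes, 500 UMIs and at most 20% mitochondrial UMIs, and predicted doublets (scrublet, expected rate 0.08, run per library) were removed. Cells of both libraries were clustered together (scanpy 1.11.5, leidenalg 0.10.2, 3000 variable genes, 30 components, 15 neighbours, resolution 1) without any potassium channel or handling gene. A cluster was named from listed markers where at least 3 were detected and 1 stood among its leading genes. A class was compared where at least 3 of its markers stood at 2 times the library level or more in both libraries, a rule added after the values were seen, as were the split of the hair cell cluster and 4 alternatives: fibrocyte-like cells without cluster 14, intermediate-like cells without their shallow cluster, no barcodes found in both libraries, and the whole hair cell cluster.

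UMIs were summed per class and scaled to CPM. CPM intervals are exact Poisson, shares exact binomial and ratios exact conditional binomial, all at 95% and for counting error only. A sum of 0 allows up to 3 counts. Thinning to 1000 UMIs left out 7662 Drug-NIHL and 7320 NIHL cells. TMM factors came from edgeR 4.0.16 (R 4.3.3) as an alternative scaling. The members, marker and gene lists were chosen with earlier results of these data known. Named genes beyond the members were up to 2 of the potassium handling list per direction and class, those past the fold ranked by how far the whole interval lay from 1, and the 3 most alike in pattern among genes with at least 100 UMIs; other genes named in the text were chosen after their values were seen. Some genes of the potassium handling list are counted but not reported here by name.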

Additional observations from a re-analysis of the deposited data

Results flagged for a closer look

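Kcnj16 went in opposite directions in classes under the same contrast. Its Drug-NIHL over NIHL ratio was 4.94 in fibrocyte-like cells, from 18 Drug-NIHL and 3 NIHL UMIs, and 1.89 in supporting-like cells, from 42 and 29 UMIs, while it was 0.579 in mucosal or squamous epithelial-like cells, from 27 and 33 UMIs. With 1 library per group the difference between the classes was not tested. The mucosal class had different leading genes in the libraries, Reg3g, Ly6k and Ltf in Drug-NIHL and Krt15 and Bpifa1 in NIHL, and 15.2% of all its genes were higher and 14% lower past the fold.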

How the results depend on the processing

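No paired analysis was possible because each group has 1 library, and for the same reason no replicate could be left out. Of the 66 pairs, 13 were higher and 15 lower past the fold, beside the shares of all genes per class given above. The count of higher pairs became 6 with at least 1000 genes per cell, 25 with predicted doublets kept, 6 after thinning, 54 with no minimum on UMIs, 6 with at least 50 UMIs and 21 at the smaller fold tried. The count of lower pairs became 5 after thinning, 50 with no minimum on UMIs, 7 with at least 50 UMIs and 5 at a fold of 2. The other alternatives kept both counts within 1.5 times, and 13 of the 28 pairs stayed past the fold in the same direction under every alternative that gave a value. Of the pairs past the fold, the direction turned with doublets kept for Kcnj13 in endothelial-like cells (2.39), Kcnk2 in macrophage-like (1.20) and neuron-like cells (1.62) and Kcnj10 in neutrophil-like cells (1.34). With the mean of each cell's CPM it turned for Kcnj10 in hair cell-like (1.21) and neutrophil-like cells (1.06), and with the whole hair cell cluster for Kcnj10 there (2.03). Of pairs not past the fold, thinning turned Kcnj10 in neuron-like (0.524), erythroid-like (0.914), oligodendrocyte-like (0.905) and supporting-like cells (0.497). It also turned Kcnk1 in supporting-like cells (1.61), among others with a ratio near 1. The highest class was the same for 8 or 9 of the 9 genes under each setting; the exceptions were Kcnk2 at resolution 2, Kcnj8 with at least 1000 genes and Kcnma1 by thinned share. The causes were not tested. Ratios from fewer than 20 UMIs were not given, and sums this low limit most classes.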
